A study of Mus musculus with 11 samples.

Results

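The collagen genes of the mouse were followed across sorted skin cells. Members were the protein-coding genes whose Ensembl 96 symbol is Col, a number, a and a number, such as Col1a1 (1 further symbol of that form was left out by the rule), which gave 43 genes of 55536 in the count tables, 22028 of them protein-coding. By the proteins they encode, 11 were fibrillar, 9 belonged to basement membranes and the zone beneath them, and 23 were other collagens. The rule reads symbols and gene types and no measured value.

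RNA was sequenced from 11 libraries of epidermal cells that were released from dorsal skin with thermolysin and sorted by flow cytometry. All came from male CD4Cre R26-tdT mice on the C57Bl6/N background, in which a Cd4-driven Cre recombinase switches on the red fluorescent protein tdT in a cell and its descendants, so tdT marks cells with a history of Cre activity and not cells that express Cd4 when sorted. Each library pooled the cells of 2 mice, aged 29 weeks in replicate 1 and 32 weeks in replicates 2 and 3. The 4 groups were tdT+ CD49f+CD34+ (n = 3), tdTneg CD49f+CD34+ (n = 3), tdT+ CD49f+CD34+SCA-1+ (n = 3) and tdTneg CD49f+CD34+SCA-1+ (n = 2). CD49f+CD34+ cells were gated as SCA-1neg, the gate that the study treats as hair follicle bulge, and CD49f+CD34+SCA-1+ cells are written SCA-1+ cells from here on. The design asks how tdT+ differ from tdTneg cells within each population, and how the populations differ.

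Collagens are trimers of chains wound into a triple helix. Fibrillar collagens (types I, III and V in skin) form the fibers of the dermis and are made largely by fibroblasts, while type IV collagen forms the sheet-like network of basement membranes, type VII the anchoring fibrils that tie the epidermal basement membrane to the dermis, and types XV and XVIII carry sugar chains and sit in basement membranes. Other classes decorate fibrils (types XII, XIV and XVI), form beaded filaments (type VI) or short-chain networks (type VIII), or span the cell membrane (types XIII, XXIII and XXV), and basal keratinocytes are themselves a source of basement membrane collagens.

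Libraries held 17409131 to 46542177 counts. Levels are given as normalized CPM, the deposited counts scaled to TMM-adjusted library sizes, and per kb of summed exon length wherever genes are compared with each other. A gene was called where edgeR's quasi-likelihood test gave an adjusted p under 0.05 over all 20307 genes tested and an absolute log2 fold change above 1. Of the 43 members, 38 passed the filter on low counts and were tested. Col6a4, Col9a1, Col19a1, Col26a1 and Col28a1 did not pass, although none was at 0 in every library. The sum of 8 keratinocyte markers was 20030 to 36780 normalized CPM in every library, and that of 8 bulge markers was 5396 to 10820 in CD49f+CD34+ and 749 to 3682 in SCA-1+ libraries. Most of the bulge sum was Postn. Its group means were 5960 (tdT+) and 5783 (tdTneg) in CD49f+CD34+ cells, and 637 (tdT+) and 1744 (tdTneg) in SCA-1+ cells. A row of the tables that is no Ensembl gene, and that the tables do not name, held 3301 to 9306 counts in 5 of the 6 tdT+ libraries and 97 to 176 in the tdTneg libraries. In the library labelled tdT+ CD49f+CD34+ replicate 2 it held 37, or 2.05 CPM of all counts, beside 133 to 307 CPM in the other tdT+ and 2.54 to 4.89 in the tdTneg libraries. On this row that library goes against its label, and whether it was mislabelled or mis-sorted was not tested. It stays in the group its label gives and is named by that label, so the counts of called genes that rest on it are also given without it, where 39 collagen genes passed the filter. Shares over all genes tested were taken with all 11 libraries, and none is at hand for counts without it. In bulk samples such as these, fewer cells of a type and less RNA per cell cannot be told apart.

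Collagen transcripts were led by basement membrane and filament chains rather than by the fibrillar chains of the dermis. Per kb of exon, the mean over the 11 libraries was highest for Col18a1, the type XVIII chain, at 94.3 normalized CPM per kb. Col6a1, a type VI chain, followed at 55.5, Col7a1, the type VII chain, at 51.3, Col8a2, a type VIII chain, at 32.2 and Col16a1, the type XVI chain, at 30.4 normalized CPM per kb. The order was not the same in every group. In tdT+ SCA-1+ cells Col7a1 led at 50.9 normalized CPM per kb, with Col16a1 at 36.3 and Col18a1 at 31.8, while Col6a1 was at 5.45 and Col8a2 at 1.76. The fibrillar gene highest on that scale was Col5a2, a type V chain, at 11.8, above Col3a1 at 6.91, Col1a1 at 5.79 and Col1a2 at 4.71. At the low end, 18 members had a mean below 0.65 normalized CPM per kb, among them the cartilage collagens Col2a1 at 0.0456, Col11a1 at 0.0369 and Col9a1 at 0.0162. Summed over all 43 genes, collagen transcripts took 3013 ± 280.0 (SD, n = 3) normalized CPM in tdT+ CD49f+CD34+ cells (3091 and 2703 without replicate 2), 4093 ± 357 (SD, n = 3) in tdTneg CD49f+CD34+ cells, 1631 ± 198 (SD, n = 3) in tdT+ SCA-1+ cells and 2976 ± 941 (SD, n = 2) in tdTneg SCA-1+ cells. The sums of the tdT+ SCA-1+ libraries, 1466 to 1850, all lay below those of the other 8 libraries, 2311 to 4329.

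**Figure D1:**
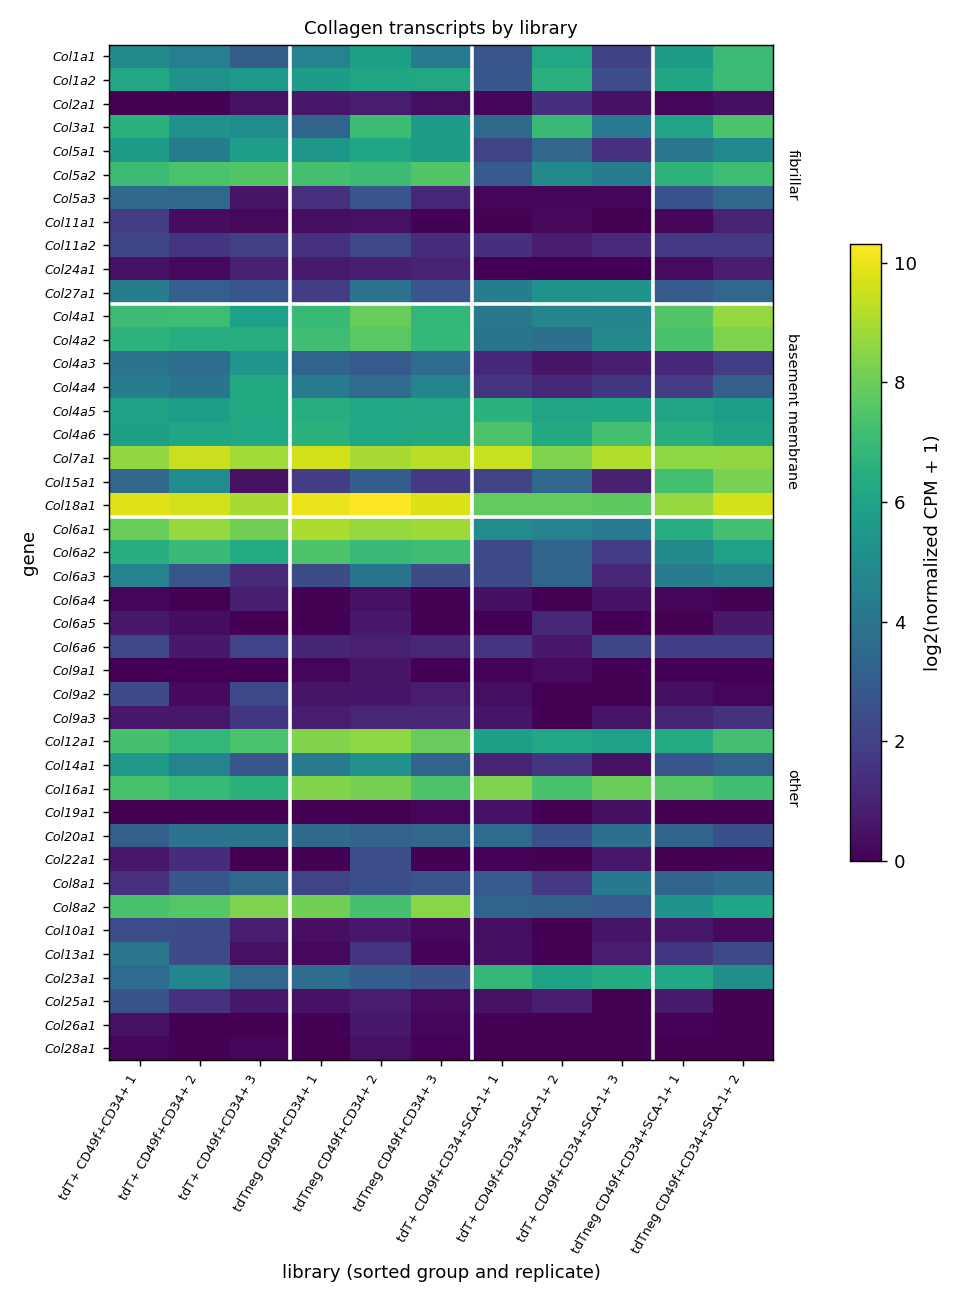
Level of each of the 43 collagen genes (rows, by class) in each of the 11 libraries (columns, by sorted group and replicate), as log2(normalized CPM + 1). Col18a1 and Col7a1 are bright in every library. Col6a1, Col6a2 and Col8a2 are darker in the SCA-1+ than in the CD49f+CD34+ columns, most so in tdT+ SCA-1+. Col4a1 and Col4a2 are darkest in the tdT+ SCA-1+ columns and brightest in tdTneg SCA-1+ replicate 2.

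Across the populations, averaged over tdT status, 1 of the 38 tested collagen genes was called higher in SCA-1+ than in CD49f+CD34+ cells and 11 were called lower. Among all genes tested, 4.77% were called higher and 6.79% lower, against 2.63% and 28.9% of the collagen genes. The 11 comprised 3 of 11 fibrillar genes (Col5a1, Col5a2 and Col24a1), 3 of 9 basement membrane genes (Col4a3, Col4a4 and Col18a1) and 5 of 18 tested other collagens (Col6a1, Col6a2, Col8a2, Col12a1 and Col14a1). The median log2 difference over the 38 genes was -0.77, beside -0.09 over all genes tested. Without tdT+ CD49f+CD34+ replicate 2, the counts were 2 higher and 12 lower, without tdTneg SCA-1+ replicate 1 they were 1 and 8, and with the replicate number as a block they were 2 and 11. The calls gained without tdT+ CD49f+CD34+ replicate 2 were Col15a1, higher, and Col9a2, lower. Marker sums moved between the populations too. In normalized CPM, 6 interfollicular epidermis markers summed to 535 to 4311 in CD49f+CD34+ and 3556 to 10880 in SCA-1+ libraries, 7 T cell markers to 5.81 to 69.6 and 77.9 to 818, 5 Langerhans markers to 16 to 347 and 268 to 684, 8 mural markers to 305 to 488 and 144 to 316, and 6 melanocyte markers to 93.5 to 159 and 15.4 to 57.1. All 7 T cell and all 5 Langerhans markers were called higher in SCA-1+ cells, and all 8 bulge markers were called lower. All 10 endothelial markers had a positive log2 difference (median 1.67), none called with tdT+ CD49f+CD34+ replicate 2 and 7 called without it. The sum of 10 fibroblast markers was 163 to 282 in CD49f+CD34+ and 29.6 to 217 in SCA-1+ libraries, and Fbln1, an extracellular matrix gene, took 129.6 to 253 and 12.4 to 120.3 of it. Most of the mural sum was Cspg4, at 242 to 442 and 42.8 to 196.6, while Notch3 went the other way at 22.9 to 53.8 and 91.1 to 127.8, and Rgs5, Pdgfrb, Acta2, Des and Myh11 were at 22.0 or less in every library. Of the 9 fibroblast markers tested, 7 had a positive log2 difference (median 0.76), with 1 called in each direction. In CD49f+CD34+ and SCA-1+ libraries, 7 dermal papilla markers summed to 32.3 to 138 and 13.4 to 27.8, with 1 of 4 tested called in each direction. The 5 Schwann markers summed to 28.7 to 53.3 and 57.0 to 140, most of it Mbp. Mitf was the largest part of the melanocyte sum, at group means of 71.2 and 72.0 in CD49f+CD34+ and 10.4 and 22.2 in SCA-1+ cells. The part of these markers in the collagen differences was not tested.

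Type VI collagen forms beaded microfilaments next to basement membranes, and its genes Col6a1 and Col6a2 set the CD49f+CD34+ population apart. Col6a1 was at 258, 418 and 281 normalized CPM in tdT+ CD49f+CD34+ replicates 1 to 3 and at 535, 420.3 and 458 in tdTneg CD49f+CD34+ replicates 1 to 3. In SCA-1+ cells it was at 30.4, 22.9 and 18.4 in the tdT+ libraries and at 82.2 and 149.8 in the tdTneg libraries. Every CD49f+CD34+ library was above every SCA-1+ library, and the tdT+ SCA-1+ libraries were the lowest. The log2 difference between the populations was -2.88 ± 0.23 (SE, adjusted p = 1.28e-04, edgeR). Col6a2 was at 77.8 to 179 normalized CPM in CD49f+CD34+ libraries, at 3.97, 9.26 and 2.68 in tdT+ SCA-1+ and at 28.2 and 58.7 in tdTneg SCA-1+ libraries, a log2 difference of -2.97 ± 0.35 (adjusted p = 5.63e-04, edgeR), again with no overlap. Libraries that did not overlap and were lower in SCA-1+ cells were seen for 5 of the 38 tested collagen genes (13.2%) and 5.67% of all genes tested. Without tdT+ CD49f+CD34+ replicate 2 they were seen for 8 of 39. Nonoverlap is easier to reach with fewer libraries, so that count cannot be set beside 5.67%. Col6a3, the large partner chain, was low beside them, at 0.851 normalized CPM per kb over all libraries. The ratio of Col6a1 to Col6a3 per kb ran from 30.8 to 535 in CD49f+CD34+ libraries and from 7.01 to 39.0 in SCA-1+ libraries. Col6a3 itself did not pass the test between the populations (log2 difference 0.23 ± 0.70, adjusted p = 0.856, edgeR). The other type VI genes Col6a4, Col6a5 and Col6a6 were at 3.76 normalized CPM or less in every library.

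Col8a2, a chain of the short-chain network collagen VIII, differed most in the same direction among the genes called. Its level was 163, 192 and 315 normalized CPM in tdT+ and 274, 158 and 357 in tdTneg CD49f+CD34+ libraries, against 9.11, 8.06 and 6.56 in tdT+ and 39.7 and 67.4 in tdTneg SCA-1+ libraries. The populations did not overlap, and the log2 difference was -3.56 ± 0.30 (SE, adjusted p = 1.32e-04, edgeR). Its partner chain Col8a1 was at 1.77 to 17.1 normalized CPM over the 11 libraries, with a log2 difference of 0.88 ± 0.53 (adjusted p = 0.276, edgeR). Both Col6a1 and Col8a2 were lower in SCA-1+ cells within tdT+ cells (log2 differences -3.74 and -4.81) and within tdTneg cells (-2.02 and -2.30), although both calls within tdTneg were lost without tdTneg SCA-1+ replicate 1 (adjusted p = 0.112 and 0.157), and that of Col8a2 also without tdTneg CD49f+CD34+ replicate 3.

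Genes of the fibril-associated collagens, which bind the surface of fibrils, were split. Col12a1, the type XII chain, was at 158, 112 and 166 normalized CPM in tdT+ and 328, 374 and 239 in tdTneg CD49f+CD34+ libraries, and at 55.7, 71.1 and 58.7 in tdT+ and 81.5 and 152 in tdTneg SCA-1+ libraries. The population difference was -1.33 ± 0.20 on the log2 scale (SE, adjusted p = 0.00167, edgeR), and only tdTneg SCA-1+ replicate 2 reached the range of the CD49f+CD34+ libraries. Col14a1, the type XIV chain, was at 5.84 to 45.3 normalized CPM in CD49f+CD34+ and 0.413 to 8.84 in SCA-1+ libraries, a log2 difference of -2.99 ± 0.63 (adjusted p = 0.00958, edgeR). That call was lost without tdTneg SCA-1+ replicate 1 (adjusted p = 0.0741) and without replicate 2 (0.0502). Col16a1, by contrast, was at 98.8 to 327 normalized CPM in CD49f+CD34+ and 140 to 321 in SCA-1+ libraries. Averaged over tdT status, its log2 difference of 0.15 ± 0.23 did not pass the test (adjusted p = 0.696, edgeR). That average joined opposite signs, neither of them called. The difference was 0.949 within tdT+ cells (adjusted p = 0.0702, edgeR), where libraries did not overlap. Within tdTneg cells it was -0.655 (adjusted p = 0.312, edgeR), with overlap. The difference between the tdT effects, 1.604, was not called either (adjusted p = 0.187, edgeR). Col20a1 stayed between 4.77 and 14.6 normalized CPM in all libraries. Col9a2, a type IX chain, was at 4.08, 0.214 and 4.02 in tdT+ and 0.455, 0.555 and 0.732 in tdTneg CD49f+CD34+ libraries. In SCA-1+ libraries it was at 0.293, 0 and 0 (tdT+) and at 0.348 and 0.126 (tdTneg). Within tdT+ cells its log2 difference of -4.59 ± 1.45 was not called (adjusted p = 0.0664, edgeR), but it was called without tdT+ CD49f+CD34+ replicate 2. Col22a1 had 0 counts in both tdTneg SCA-1+ libraries and in tdT+ CD49f+CD34+ replicate 3, and reached 4.63 normalized CPM in tdTneg CD49f+CD34+ replicate 2 alone. With so few and uneven counts, no fitted fold of Col22a1 is printed.

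Col23a1, which encodes a transmembrane collagen, was the collagen gene called higher in SCA-1+ cells. It was at 11.2, 25.4 and 9.59 normalized CPM in tdT+ and 12.1, 7.22 and 5.17 in tdTneg CD49f+CD34+ libraries, and at 116, 61.4 and 80.1 in tdT+ and 71.8 and 33.3 in tdTneg SCA-1+ libraries. All 5 SCA-1+ libraries were above all 6 CD49f+CD34+ libraries, and the log2 difference was 2.58 ± 0.35 (SE, adjusted p = 0.0011, edgeR). Nonoverlap in that direction was found for 2.63% of the tested collagen genes and 5.1% of all genes tested. The difference was 2.48 within tdT+ and 2.69 within tdTneg cells, the latter lost without tdTneg SCA-1+ replicate 1 (adjusted p = 0.184) or tdTneg CD49f+CD34+ replicate 3. The other transmembrane genes, Col13a1 and Col25a1, were at 16.3 normalized CPM or less throughout.

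**Figure D2:**
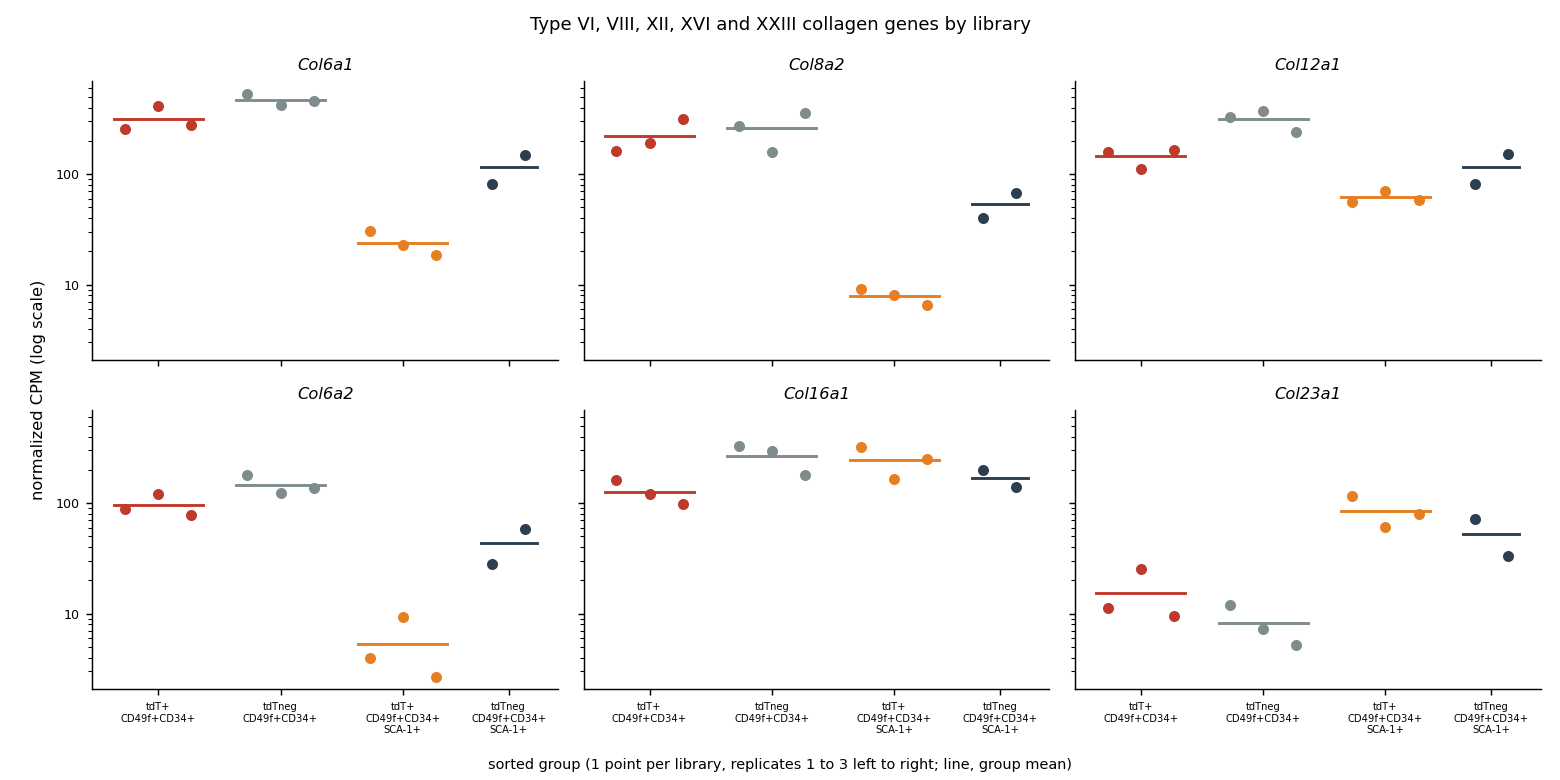
Normalized CPM (log axis, common to all panels) of 6 collagen genes in the 4 sorted groups, 1 point per library with a line at the group mean. Col6a1, Col6a2 and Col8a2 are lower in SCA-1+ libraries without overlap, Col23a1 is higher without overlap, Col12a1 overlaps in 1 library, and Col16a1 overlaps between the populations.

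Type IV collagen genes lie as pairs, head to head on opposite strands. In the annotation (GRCm38), the starts of Col4a1 (minus strand) and Col4a2 (plus strand) on chromosome 8 overlap by 22 bases, those of Col4a4 (minus) and Col4a3 (plus) on chromosome 1 are 71 bases apart, and those of Col4a6 (minus) and Col4a5 (plus) on chromosome X are 1308 bases apart. Col4a1 and Col4a2 encode the chains found in nearly all basement membranes, Col4a3 and Col4a4 join Col4a5 in a more specialized network, and Col4a5 and Col4a6 form the further network of skin. RefSeq promoter windows (GRCm38.p6, 250 bases before to 50 after the start, 300 in all) were found for 34 of the 43 members, Col4a3 not among them. The 5 type IV windows are shown because the levels within and between the pairs are compared below. Those of Col4a1 and Col4a2 share sequence, and those of Col4a5 and Col4a6 do not overlap. Capitals mark the 78 bases that the Col4a1 and Col4a2 windows share on opposite strands, the 71 bases between the annotated starts of Col4a4 and Col4a3, and in the Col4a5 and Col4a6 windows the GC box.
Col4a1 (chr8:11312777-11313076, minus strand): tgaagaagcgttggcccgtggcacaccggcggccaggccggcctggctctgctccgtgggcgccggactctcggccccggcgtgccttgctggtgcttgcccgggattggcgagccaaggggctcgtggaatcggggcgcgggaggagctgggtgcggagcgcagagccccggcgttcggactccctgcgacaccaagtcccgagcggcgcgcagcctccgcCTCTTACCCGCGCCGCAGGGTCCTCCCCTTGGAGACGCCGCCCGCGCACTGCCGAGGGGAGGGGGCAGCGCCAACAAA
Col4a2 (chr8:11312555-11312854, plus strand): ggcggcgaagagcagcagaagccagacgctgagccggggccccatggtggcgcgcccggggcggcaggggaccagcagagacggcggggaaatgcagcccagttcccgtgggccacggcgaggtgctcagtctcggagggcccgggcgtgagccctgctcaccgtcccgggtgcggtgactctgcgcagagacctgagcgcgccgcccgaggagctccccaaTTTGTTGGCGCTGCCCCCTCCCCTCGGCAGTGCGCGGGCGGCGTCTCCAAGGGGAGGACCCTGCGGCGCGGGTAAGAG
Col4a4 (chr1:82586800-82587099, minus strand): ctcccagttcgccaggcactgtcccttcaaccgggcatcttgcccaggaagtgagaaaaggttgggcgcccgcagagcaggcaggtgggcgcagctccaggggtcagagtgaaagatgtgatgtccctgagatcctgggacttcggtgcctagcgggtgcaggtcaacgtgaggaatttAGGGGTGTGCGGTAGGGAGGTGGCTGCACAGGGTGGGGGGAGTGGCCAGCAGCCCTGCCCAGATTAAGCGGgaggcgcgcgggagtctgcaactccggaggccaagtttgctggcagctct
Col4a5 (chrX:141475169-141475468, plus strand): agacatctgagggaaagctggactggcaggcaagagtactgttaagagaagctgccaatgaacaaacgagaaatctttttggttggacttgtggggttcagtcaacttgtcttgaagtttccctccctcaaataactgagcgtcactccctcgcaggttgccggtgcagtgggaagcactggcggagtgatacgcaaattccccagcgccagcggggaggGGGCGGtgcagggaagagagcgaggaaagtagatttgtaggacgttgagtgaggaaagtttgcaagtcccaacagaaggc
Col4a6 (chrX:141474027-141474326, minus strand): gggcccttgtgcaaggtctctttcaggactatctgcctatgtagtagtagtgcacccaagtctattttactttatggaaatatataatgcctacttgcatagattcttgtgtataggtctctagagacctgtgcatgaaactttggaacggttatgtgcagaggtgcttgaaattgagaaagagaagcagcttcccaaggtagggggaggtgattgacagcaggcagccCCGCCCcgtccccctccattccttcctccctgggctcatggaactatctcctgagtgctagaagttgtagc
The GC box (GGGCGG on either strand) occurred 1 time in the Col4a1 window, 3 times in that of Col4a2, 1 time in those of Col4a5 and Col4a6 and not in that of Col4a4, and 35.7% of all 32851 windows of that length hold it. A CCAAT box (CCAAT on either strand, in no case overlapping a GC box) occurred 1 time in the windows of Col4a1, Col4a2 and Col4a5, against 37.4% of all windows. None of the 5 held TATAAA on either strand, which 13.6% of all windows hold.

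Within each pair the levels ran close, while the pairs parted from each other. Per kb, the ratio of Col4a1 to Col4a2 was 0.610 to 1.70 over the 11 libraries, that of Col4a5 to Col4a6 was 0.518 to 1.30, and that of Col4a3 to Col4a4 was 0.384 to 0.829. Across pairs, the ratio of Col4a5 to Col4a1 ran from 0.149 to 6.60. In tdT+ SCA-1+ cells Col4a6 and Col4a5 were the leading type IV genes, at 16.7 and 11.2 normalized CPM per kb, with Col4a1 and Col4a2 at 2.90 and 2.82. In tdTneg SCA-1+ cells the order was turned, with Col4a1 and Col4a2 at 39.8 and 36.8 and Col4a6 and Col4a5 at 9.58 and 8.88. The pair shares few counted bases (22 bases, 0.295% of Col4a1 and 0.332% of Col4a2 exon length), but 5.65% of Col4a3 exon length overlaps a gene on the other strand, and the strand setting of the counting is not given in the sources used here.

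Col4a1 was at 133, 137 and 58.7 normalized CPM in tdT+ and 126, 242 and 113 in tdTneg CD49f+CD34+ libraries. It was at 16.3, 24.6 and 23.95 in tdT+ SCA-1+ and at 187 and 408 in tdTneg SCA-1+ libraries. Col4a2 was at 100.4, 86.3 and 85.4 in tdT+ and 141, 203 and 115 in tdTneg CD49f+CD34+ libraries, and at 14.9, 12.8 and 28.2 in tdT+ SCA-1+ and 164 and 323 in tdTneg SCA-1+ libraries. For both genes the tdT+ SCA-1+ libraries were the lowest of all 11. Between tdT+ and tdTneg SCA-1+ cells the log2 difference was -3.78 ± 0.48 for Col4a1 (SE, adjusted p = 0.00346, edgeR) and -3.71 ± 0.39 for Col4a2 (adjusted p = 0.00143). Within tdT+ cells, SCA-1+ were below CD49f+CD34+ cells by -2.34 ± 0.43 for Col4a1 (adjusted p = 0.00782, edgeR) and -2.28 ± 0.36 for Col4a2 (adjusted p = 0.00334), and the values without tdT+ CD49f+CD34+ replicate 2 were -2.15 and -2.32. These comparisons share the 3 tdT+ SCA-1+ libraries. In CD49f+CD34+ cells the tdT log2 difference was -0.55 ± 0.41 for Col4a1 (adjusted p = 0.76, edgeR) and -0.75 ± 0.34 for Col4a2 (adjusted p = 0.595). Neither passed the test, although the tdT+ libraries of Col4a2 all lay below the tdTneg libraries.

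The tdT effect on Col4a2 was more negative in SCA-1+ than in CD49f+CD34+ cells. The difference between those effects was -2.96 ± 0.51 on the log2 scale (SE, adjusted p = 0.0453, edgeR), the sole call among 38 collagen genes in that test. Of all genes tested, 0.379% were called lower and 0.00985% higher in that test. DESeq2 called 10 collagen genes lower and 1 higher, and edgeR with a filter of at least 1 count called 8 lower and 1 higher. Col4a1 was at -3.23 ± 0.62 (adjusted p = 0.0645, edgeR), and Col5a3 and Col15a1 had larger fitted differences of -7.42 and -7.25 with adjusted p = 0.0764 and 0.121. The call of Col4a2 was lost with the replicate number as a block (adjusted p = 0.0786) and without either tdTneg SCA-1+ replicate, tdT+ CD49f+CD34+ replicates 1 or 2, tdTneg CD49f+CD34+ replicates 1 or 3, or tdT+ SCA-1+ replicates 1 or 2 (adjusted p up to 0.23). Leaving out tdT+ CD49f+CD34+ replicate 3 gave 4 calls, leaving out tdT+ SCA-1+ replicate 2 gave 3, and leaving out tdTneg CD49f+CD34+ replicate 2 gave 2. Markers moved with this difference. All 10 endothelial markers had a negative difference between the effects (median -6.97, 9 at an unadjusted p under 0.05), as had all 5 Langerhans markers (median -3.02, 4 at that p), with none called in either set. All 8 bulge markers (median -1.42, 5 at that p, Cd34 called at -3.32) and all 9 tested fibroblast markers (median -2.15, 1 at that p) were negative too. At that p, 7.63% of all genes tested were lower. The endothelial sum was 2903 and 3283 normalized CPM in the tdTneg SCA-1+ libraries, where Col4a2 was at 164 and 323. Their part in the Col4a1 and Col4a2 levels was not tested.

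Col4a3 and Col4a4 were lower in SCA-1+ than in CD49f+CD34+ cells. Col4a3 was at 14.7, 11.8 and 41.3 normalized CPM in tdT+ and 8.89, 6.53 and 11.1 in tdTneg CD49f+CD34+ libraries, against 1.31, 0.454 and 0.826 in tdT+ and 1.30 and 2.81 in tdTneg SCA-1+ libraries. Col4a4 was at 11.3 to 76.2 in CD49f+CD34+ and 1.25 to 7.79 in SCA-1+ libraries. The populations did not overlap for either gene. The log2 differences were -3.40 ± 0.47 for Col4a3 (SE, adjusted p = 0.00119, edgeR) and -3.07 ± 0.53 for Col4a4 (adjusted p = 0.00358). Both genes were highest in tdT+ CD49f+CD34+ replicate 3, where Col4a4 was at 76.2 normalized CPM.

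The X-linked pair showed smaller differences. Col4a5 was at 60.6, 54.6 and 75.7 normalized CPM in tdT+ and 85.1, 69.6 and 73.6 in tdTneg CD49f+CD34+ libraries, and at 96.8, 63.3 and 65.6 in tdT+ and 64.5 and 54.8 in tdTneg SCA-1+ libraries. The 95% interval of its log2 difference between the populations was -0.38 to 0.27. Col4a6 was at 172, 76.0 and 150.2 in tdT+ SCA-1+ libraries and at 55.1 to 94.2 in the other 8. Within tdT+ cells it was called higher in SCA-1+ cells by 1.04 ± 0.28 on the log2 scale (SE, adjusted p = 0.038, edgeR). That call was lost in 14 of 16 alternatives: with the replicate block, where the log2 difference of 0.97 fell short of the fold threshold, under DESeq2, other size factors, a looser filter or a fit of those groups alone, and without any library but tdTneg CD49f+CD34+ replicate 2 and tdT+ SCA-1+ replicate 2.

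**Figure D3:**
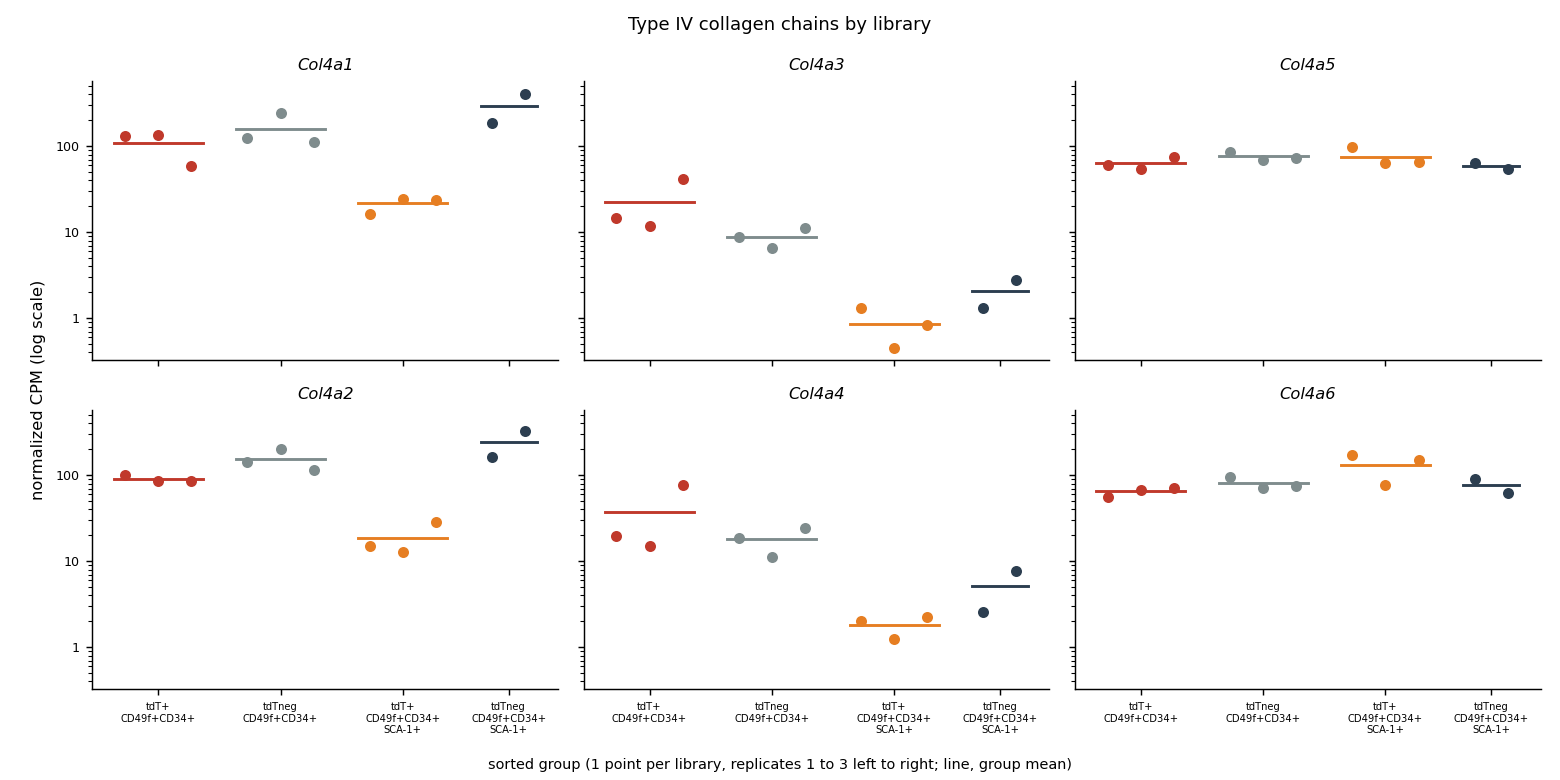
Normalized CPM (log axis, common to all panels) of the 6 type IV genes, each pair in a column, in the 4 sorted groups with 1 point per library and a line at the group mean. Col4a1 and Col4a2 are lowest in tdT+ SCA-1+ libraries, Col4a3 and Col4a4 are lower in all SCA-1+ libraries, and Col4a5 and Col4a6 differ least.

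Of the other basement membrane genes, Col7a1 was not called in any comparison and Col18a1 was lower in SCA-1+ cells. Col7a1 was at 402, 712 and 469 normalized CPM in tdT+ and 776, 504 and 603 in tdTneg CD49f+CD34+ libraries, and at 696, 321 and 554 in tdT+ and 378 and 389 in tdTneg SCA-1+ libraries. Its log2 difference between the populations was -0.36 with a 95% interval of -0.87 to 0.15. Col18a1 was at 927, 774 and 497 in tdT+ and 1036, 1276 and 879 in tdTneg CD49f+CD34+ libraries, against 229, 230.5 and 211 in tdT+ and 409.7 and 815 in tdTneg SCA-1+ libraries. The population difference was -1.25 ± 0.22 (log2, SE, adjusted p = 0.00419, edgeR), and the 3 tdT+ SCA-1+ libraries lay close together below the rest. Between tdT+ and tdTneg SCA-1+ cells the Col18a1 difference of -1.46 ± 0.32 was just called (adjusted p = 0.0432, edgeR) and was lost with the replicate block (0.0789) and without tdT+ CD49f+CD34+ replicate 2 (0.0583), tdTneg CD49f+CD34+ replicates 1 or 3, any tdT+ SCA-1+ library or tdTneg SCA-1+ replicate 2 (0.514).

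Col15a1, the type XV chain, stood out in tdTneg SCA-1+ cells. Its level was 145 and 299 normalized CPM there, against 3.33, 10.3 and 0.929 in tdT+ SCA-1+, 9.47, 30.4 and 0.386 in tdT+ CD49f+CD34+ and 2.65, 7.30 and 2.24 in tdTneg CD49f+CD34+ libraries. Within tdTneg cells the log2 difference of SCA-1+ to CD49f+CD34+ cells was 5.77 ± 1.38 (SE, adjusted p = 0.0394, edgeR), and against tdT+ SCA-1+ cells the tdT difference of -5.53 ± 1.37 missed the threshold (adjusted p = 0.0742). Averaged over tdT status, the population difference of 2.15 ± 0.85 was not called (adjusted p = 0.103, edgeR), but it was called without tdT+ CD49f+CD34+ replicate 2. The call within tdTneg was lost without either tdTneg SCA-1+ replicate, any tdTneg CD49f+CD34+ replicate or tdT+ SCA-1+ replicate 1 (adjusted p up to 0.151). The sum of 10 endothelial markers moved with it, at 2903 and 3283 normalized CPM in tdTneg SCA-1+, 53.2 to 104 in tdT+ SCA-1+, 48.0 to 147 in tdTneg CD49f+CD34+ and 93.2, 779 and 7.11 in tdT+ CD49f+CD34+ libraries. The library with 779 had the highest Col15a1 outside the tdTneg SCA-1+ group. No endothelial marker was at 0 in any library, and their part in the Col15a1 level was not tested.

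Between tdT+ and tdTneg SCA-1+ cells, 8 of 38 collagen genes were called lower and none higher, 21.1% against a background of 2.06% called lower and 0.251% called higher among all genes tested. A count of 0 higher calls went with 2 collagen genes at an unadjusted p under 0.05 in that direction (5.26%, against 5.17% of all genes tested), and DESeq2 called 1. The 8 were Col4a1, Col4a2 and Col18a1 of the basement membrane class, Col5a2 and Col5a3 of the fibrillar class, and Col6a1, Col6a2 and Col8a2 of the others. The median log2 difference over the 38 genes was -1.34, beside 0.04 over all genes tested. In 18 of the 38 genes (47.4%) the 3 tdT+ libraries lay below both tdTneg libraries, as in 17.2% of all genes tested. Leaving out tdTneg SCA-1+ replicate 2 left 2 calls, Col4a1 and Col4a2, leaving out tdT+ SCA-1+ replicate 1 left 5, and leaving out tdT+ CD49f+CD34+ replicate 2 left 7.

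For the type VI and VIII genes, whose values by library are given above, the tdT log2 difference in SCA-1+ cells was -2.28 ± 0.31 for Col6a1 (SE, adjusted p = 0.00485, edgeR), -3.04 ± 0.48 for Col6a2 (adjusted p = 0.0104) and -2.76 ± 0.38 for Col8a2 (adjusted p = 0.0058). All of them became uncalled without tdTneg SCA-1+ replicate 2 (adjusted p = 0.0555 to 0.096), and Col6a2 also without tdT+ SCA-1+ replicate 1. Col12a1, at -0.91 ± 0.28, did not pass (adjusted p = 0.15, edgeR). Several marker sums moved with this comparison. All 10 endothelial and all 8 bulge markers had an unadjusted p under 0.05 and were lower in tdT+ SCA-1+ cells, with 1 and 3 called, and 7 and 3 without tdT+ CD49f+CD34+ replicate 2. At that p, 9.42% of all genes tested were lower. The bulge sum was 749 to 1408 normalized CPM in tdT+ and 2276 to 3682 in tdTneg SCA-1+ libraries. Cd34, a bulge marker and a marker of the sort itself, was at 22.4 to 35.7 and 320 to 383 (log2 difference -3.68 ± 0.33, adjusted p = 7.76e-04, edgeR), and Lhx2 (-2.69) and Lgr5 (-2.31) were the other bulge calls. The sum of 10 fibroblast markers was 29.6, 133 and 31.8 normalized CPM in tdT+ and 127 and 217 in tdTneg SCA-1+ libraries, that of 8 mural markers 144 to 193 and 210 to 316, that of 5 Langerhans markers 268 to 407 and 637 to 684, and that of 7 T cell markers 311 to 818 and 77.9 to 97.6. The interfollicular epidermis sum was 8676 to 10880 and 3556 to 7365 (5 of 6 markers positive, Ly6d called higher), the keratinocyte sum 32840 to 36780 and 23070 to 26710, and the melanocyte sum 15.4 to 24.7 and 35.5 to 57.1. Cspg4, which made up part of the mural sum, was at 42.8 to 67.6 and 99.4 to 196.6. Twist2, a fibroblast marker, had 0 counts in 8 of the 11 libraries, and 0.136 normalized CPM at most. The part of these cells in the collagen differences was not tested, and cell makeup and the tdT gate cannot be told apart in this comparison.

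**Figure D4:**
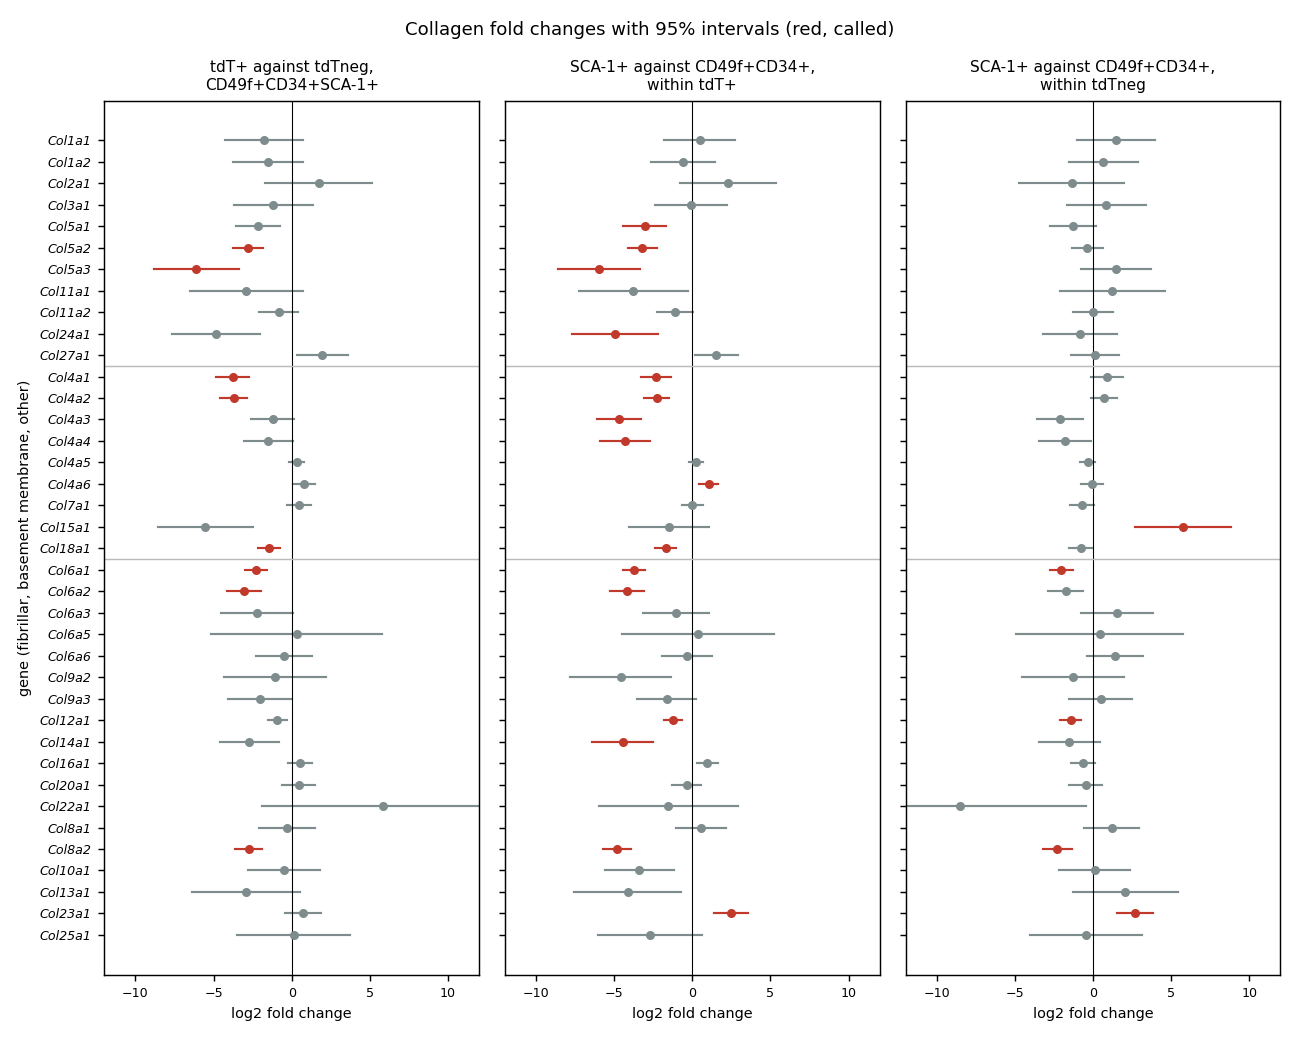
Log2 fold change with its 95% interval for the 38 tested collagen genes in 3 comparisons, called genes in red and lines parting the fibrillar, basement membrane and other classes. Col4a1 and Col4a2 are red on the left in the tdT comparison and within tdT+ cells but not within tdTneg cells, Col23a1 is red on the right in both population panels, and intervals of Col22a1 run past the axis and are drawn to its edge.

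Of the fibrillar genes, Col5a1, Col5a2 and Col24a1 were called lower in SCA-1+ cells averaged over tdT status. Col5a2 was at 133, 168 and 187 normalized CPM in tdT+ and 152, 134 and 181 in tdTneg CD49f+CD34+ libraries, at 7.09, 28.2 and 17.9 in tdT+ SCA-1+ and at 104 and 139 in tdTneg SCA-1+ libraries. All tdT+ SCA-1+ libraries were below every other library. The population difference was -1.78 ± 0.31 (log2, SE, adjusted p = 0.00343, edgeR), with -3.20 within tdT+ cells (adjusted p = 0.00147) and -0.36 within tdTneg cells, which did not pass (0.696). The difference between those was not called (adjusted p = 0.0754, edgeR). The tdT difference in SCA-1+ cells was -2.78 ± 0.44 (adjusted p = 0.0102, edgeR), which was lost without tdTneg SCA-1+ replicate 2 (0.0758). Col5a1, its partner in type V trimers, was at 50.2, 19.7 and 52.8 in tdT+ and 42.5, 67.1 and 48.4 in tdTneg CD49f+CD34+ libraries, and at 3.38, 9.65 and 1.76 in tdT+ and 15.9 and 27.3 in tdTneg SCA-1+ libraries. Only tdTneg SCA-1+ replicate 2 reached the lowest CD49f+CD34+ library, and the population difference was -2.17 ± 0.45 (adjusted p = 0.00924, edgeR), lost without tdTneg SCA-1+ replicate 1 (0.0681).

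Col5a3, the third type V gene, was low and uneven. It was at 10.8, 10.02 and 0.441 normalized CPM in tdT+ and 1.78, 5.52 and 1.195 in tdTneg CD49f+CD34+ libraries, at 0.107, 0.114 and 0.103 in tdT+ SCA-1+ and at 5.13 and 10.2 in tdTneg SCA-1+ libraries. The tdT+ SCA-1+ libraries held 8 counts in all, against 406 in the tdTneg SCA-1+ libraries, a ratio of 0.0147 with an exact 95% counting interval of 0.00629 to 0.0292. The fitted tdT difference of -6.10 ± 1.22 (log2, SE, adjusted p = 0.0312, edgeR) was lost without any of the 5 SCA-1+ libraries or tdTneg CD49f+CD34+ replicate 1. Col24a1, a minor fibrillar gene, had 1 count in the 3 tdT+ SCA-1+ libraries together and 29 in the tdT+ CD49f+CD34+ libraries, a ratio of 0.0273 with a counting interval of 0.000667 to 0.164. It was called lower in SCA-1+ cells averaged over tdT status (adjusted p = 0.0362, edgeR) and within tdT+ cells (0.0275), and those calls were lost in 11 and 8 of 15 alternatives, the replicate block among them (0.0829 and 0.0587). Such intervals cover counting error only.

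Col1a1 and Col1a2, the chains of type I, and Col3a1, the type III chain, did not pass any test. Col1a1 was at 29.1, 20.9 and 7.27 normalized CPM in tdT+ and 23.2, 56.4 and 18.4 in tdTneg CD49f+CD34+ libraries, at 5.62, 71.2 and 3.15 in tdT+ SCA-1+ and at 51.4 and 131 in tdTneg SCA-1+ libraries. Col3a1 was at 95.9, 38.6 and 31.9, at 8.86, 135 and 51.2, at 10.9, 126 and 17.5 and at 63.8 and 167 in the same order. Col1a2 was at 70.9, 38.8 and 46.2, at 50.1, 66.6 and 70.1, at 6.08, 92.3 and 4.49 and at 67.2 and 131. In tdT+ SCA-1+ replicate 2 all 3 genes stood far above replicates 1 and 3 of the same group, and in tdTneg SCA-1+ replicate 2 all 3 were at their highest. The fibroblast marker sum was also higher in that tdT+ SCA-1+ library (133 against 29.6 and 31.8 normalized CPM), with Fbln1 at 60.02 and Dcn at 42.3 making up most of it. In CD49f+CD34+ libraries the sum was 163 to 282, of which Fbln1 alone was 129.6 to 253. Whether such cells carried these transcripts was not tested. The 95% interval of the population difference was -0.71 to 2.67 for Col1a1, -1.49 to 1.55 for Col1a2 and -1.36 to 2.07 for Col3a1 on the log2 scale, wide enough to hold changes above the fold threshold in each case. Col27a1, a further fibrillar gene, was at 20.0, 37.4 and 39.0 normalized CPM in tdT+ SCA-1+ libraries and 2.71 to 19.7 elsewhere, and it was not called in any comparison.

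**Figure D5:**
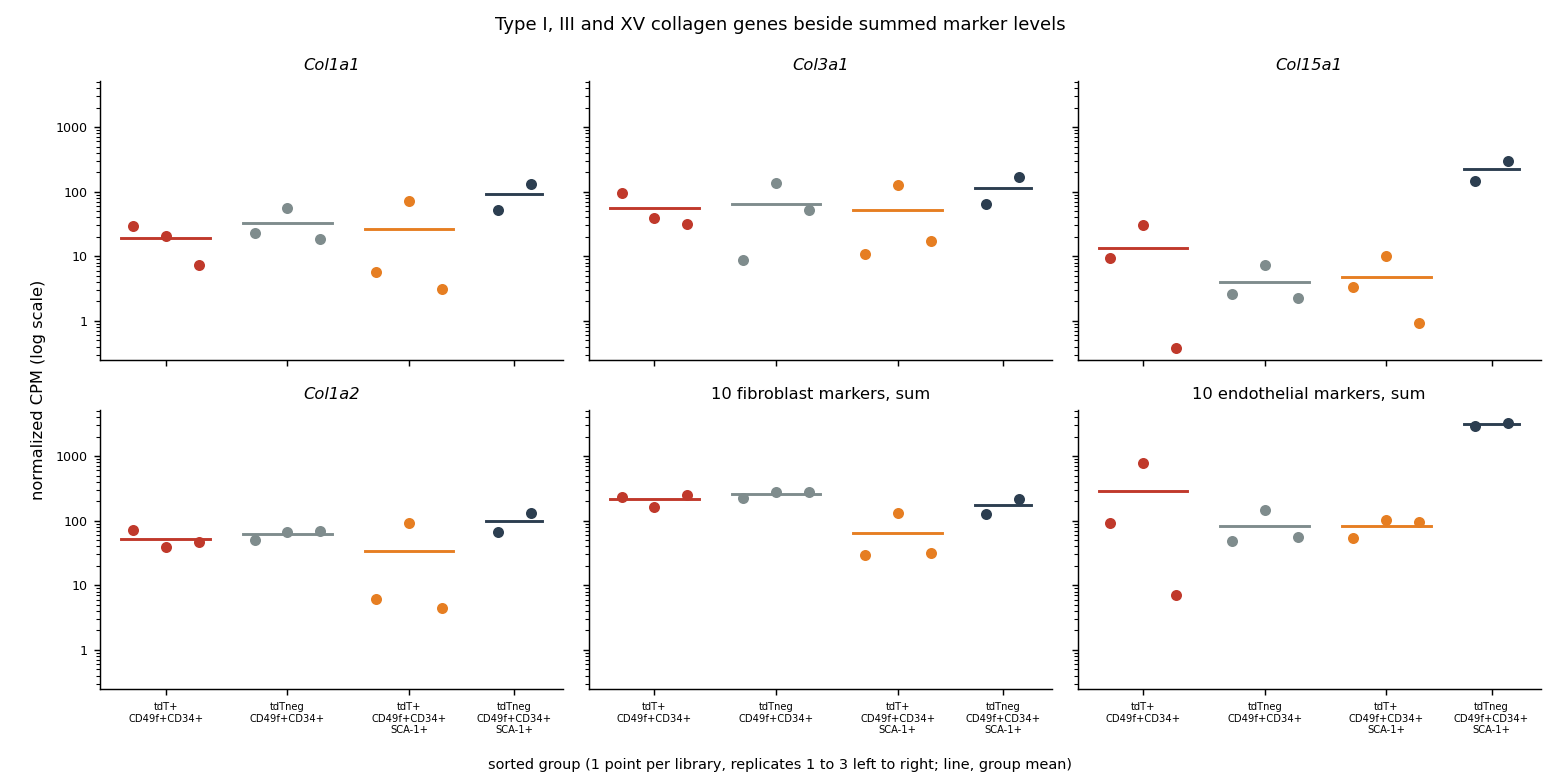
Normalized CPM (log axis, common to all panels) of Col1a1, Col1a2, Col3a1 and Col15a1 beside the summed level of 10 fibroblast and 10 endothelial markers, 1 point per library with a line at the group mean. Col1a1, Col1a2, Col3a1 and the fibroblast sum are high in the middle tdT+ SCA-1+ library (replicate 2), and Col15a1 and the endothelial sum are high in both tdTneg SCA-1+ libraries.

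Within tdT+ cells, 2 collagen genes were called higher in SCA-1+ than in CD49f+CD34+ cells (Col4a6 and Col23a1) and 14 lower, 5.26% and 36.8% of those tested, against 2.91% and 5.54% of all genes tested. The lower genes were Col5a1, Col5a2, Col5a3 and Col24a1 of the fibrillar class, Col4a1, Col4a2, Col4a3, Col4a4 and Col18a1 of the basement membrane class, and Col6a1, Col6a2, Col8a2, Col12a1 and Col14a1 of the others. The replicate block gave 1 and 13. Leaving out tdT+ CD49f+CD34+ replicate 2 gave 1 and 15, and the count of higher calls was also 1 without any other library except tdTneg CD49f+CD34+ replicate 2 (2 calls) and tdT+ SCA-1+ replicate 2 (3 calls). In these 6 libraries the bulge sum was 5396 to 10280 normalized CPM in CD49f+CD34+ and 749 to 1408 in SCA-1+ libraries, the mural sum 305 to 449 and 144 to 193 (Cspg4 242 to 387 and 42.8 to 67.6), the melanocyte sum 93.5 to 123 and 15.4 to 24.7, and the T cell sum 62.2 to 69.6 and 311 to 818. The interfollicular epidermis sum was 1860 to 4311 and 8676 to 10880, with 5 of 6 markers positive and Ly6d and Ly6a, the gene of SCA-1 itself, called higher. The keratinocyte sum was 20030 to 26840 and 32840 to 36780, with 6 of 8 markers positive and Krt14 and Itga6 called higher. The other 2, Krt15 and Epcam, were lower, with group means of 7268 and 4106 and of 382 and 227 normalized CPM. The endothelial sum was 7.11 to 779 and 53.2 to 104. Of the 10 endothelial markers, 9 had a negative log2 difference (median -1.69), 2 at an unadjusted p under 0.05 (beside 17.1% of all genes tested) and none called. Without tdT+ CD49f+CD34+ replicate 2, the library with 779, 3 were called higher and none lower. All 5 Langerhans markers had a positive log2 difference, none called with that library and 2 without it. The fibroblast sum was 163 to 247 and 29.6 to 133, although 6 of its 9 tested markers had a positive log2 difference (median 0.27) and Fbln1 was called lower (-2.52). The part of these markers was not tested. Within tdTneg cells, 2 were called higher (Col15a1 and Col23a1) and 3 lower (Col6a1, Col8a2 and Col12a1), 5.26% and 7.89%, against 3.29% and 1.45% of all genes tested. DESeq2 called 2 higher and 6 lower there, and a filter of at least 1 count gave 2 and 5. Markers called higher within tdTneg were 3 of 10 endothelial (all positive, median 5.46), 4 of 5 Langerhans, 5 of 7 T cell and 4 of 6 interfollicular epidermis markers, and 3 of 8 bulge markers were called lower. Without tdT+ CD49f+CD34+ replicate 2 the endothelial count was 8, the Langerhans count 5 and the bulge count 2. The endothelial sum was 48.0 to 147 normalized CPM in tdTneg CD49f+CD34+ and 2903 and 3283 in tdTneg SCA-1+ libraries, the Langerhans sum 16 to 70.1 and 637 and 684, and the bulge sum 6112 to 10820 and 2276 and 3682. Their part in these calls was not tested. Without tdTneg SCA-1+ replicate 1 there was no call within tdTneg, without tdTneg CD49f+CD34+ replicate 3 there were 0 higher calls, and without tdTneg CD49f+CD34+ replicates 1 or 2, tdT+ SCA-1+ replicate 1 or tdTneg SCA-1+ replicate 2 there was 1. The fold of Col12a1 within tdTneg was -1.43 ± 0.30 on the log2 scale (SE, adjusted p = 0.0256, edgeR), lost without tdTneg CD49f+CD34+ replicate 1, in a fit of the groups compared alone, and without tdTneg SCA-1+ replicate 1 (0.215). Its fold within tdT+ was -1.24 ± 0.26 (adjusted p = 0.0138, edgeR), lost without tdT+ SCA-1+ replicates 1 or 3.

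Between tdT+ and tdTneg CD49f+CD34+ cells no collagen gene was called, with or without tdT+ replicate 2. Of all genes tested, 0.00985% were called higher and 0% lower. At an unadjusted p under 0.05, 3 of the 38 collagen genes were higher (Col4a3, Col10a1 and Col13a1) and 2 lower (Col12a1 and Col16a1), 4.56% and 3.86% being the shares of all genes tested, and DESeq2 called 1 gene in each direction. Without tdT+ CD49f+CD34+ replicate 2, 5 of 39 were higher and 3 lower at that p, with no share of all genes at hand. Col12a1 was at -1.11 ± 0.26 (log2, SE, adjusted p = 0.231, edgeR) and Col16a1 at -1.07 ± 0.31 (adjusted p = 0.358), and their 3 tdT+ libraries lay below all 3 tdTneg libraries. Libraries parted in that way in 5 of the 38 collagen genes (13.2%) and in 10.9% of all genes tested. Without that library they did so in 6 of 39 collagen genes, a count that cannot be set beside 10.9%, as fewer libraries part more easily. Col10a1, the type X chain of growth cartilage, was at 4.49, 4.07 and 0.827 in tdT+ and 0.331, 0.634 and 0.171 normalized CPM in tdTneg libraries, and Col13a1 at 16.3, 4.29 and 0.386 and at 0.165, 1.90 and 0.0732. The T cell marker sum was 62.2 to 69.6 normalized CPM in tdT+ and 5.81 to 25.6 in tdTneg libraries of this population. The interfollicular epidermis sum was 1860 to 4311 and 535 to 1730, and the Langerhans sum 71.1 to 347 and 16 to 70.1. Of 6 interfollicular epidermis markers all had a positive log2 difference, 5 at an unadjusted p under 0.05 with Ly6d called (2.04, adjusted p = 0.0415, edgeR, a call lost without tdT+ replicate 2), as had all 5 Langerhans markers, 4 at that p. The part of these markers in the collagen values was not tested.

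Enzymes and chaperones that make collagen gave a few calls. Of 20 such genes, 1 was called higher in SCA-1+ than in CD49f+CD34+ cells averaged over tdT status and 4 lower, beside 4.77% and 6.79% of all genes tested, and the counts were 1 and 4 without tdT+ CD49f+CD34+ replicate 2. The lower genes were Serpinh1, the collagen chaperone of the endoplasmic reticulum (log2 difference -1.06), Fkbp10, a prolyl isomerase that assists folding (-1.85), P3h1, a prolyl hydroxylase (-1.17), and P3h4, its relative without that activity (-1.14), and the higher gene was P4ha2, a subunit of the prolyl hydroxylase that stabilizes the helix (1.24). Fkbp10 was at 1.28, 3.52 and 2.48 normalized CPM in tdT+ SCA-1+ libraries and 19.3 to 34.7 in the other 8, and it was called lower in tdT+ than tdTneg SCA-1+ cells (log2 difference -3.39 ± 0.37, adjusted p = 0.00168, edgeR) together with Plod3, a lysyl hydroxylase (-1.07). These 2 were the lower calls among the 20 in that comparison, and none was higher, beside 2.06% and 0.251% of all genes tested.

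Proteins that sit beside collagen in basement membranes and fibrils gave further calls. In the tdT comparison of SCA-1+ cells, 3 of 15 basement membrane partners were called lower and none higher, beside 2.06% and 0.251% of all genes tested. They were Hspg2, which encodes perlecan (log2 difference -2.76 ± 0.22, adjusted p = 6.25e-04, edgeR), Lama4 (-2.61) and Lamb2 (-1.22), both laminin chains. The call of Lamb2 was lost without tdT+ CD49f+CD34+ replicate 2. The endothelial and bulge markers that were lower in this comparison (endothelial sum 53.2 to 104 in tdT+ and 2903 and 3283 normalized CPM in tdTneg SCA-1+ libraries) moved with the partner genes as well, and their part was not tested. Of 10 fibril-binding partners, Sparc, a collagen-binding matricellular protein, and Bgn, a small proteoglycan, were called lower there (-2.55 and -4.52). Between the populations averaged over tdT status none of the 15 basement membrane partners was called, at an unadjusted p under 0.05 2 were higher and 2 lower (14.7% and 19.7% of all genes tested), and Sparc (-1.21) and Aspn (-2.89) were lower and Tnxb, a tenascin that binds fibrils (2.77), was higher among the 10 fibril-binding partners, beside 4.77% called higher and 6.79% lower among all genes tested. Without tdT+ CD49f+CD34+ replicate 2 these calls were 0 of 15 and again 1 higher and 2 lower of 10. Within tdTneg cells, Lama4 was called higher (1.30) and Agrn, which encodes agrin, lower (-1.13) in SCA-1+ cells, beside 3.29% and 1.45% of all genes tested, and the call of Agrn was lost without that library.

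Among 12 tested genes of procollagen processing and crosslinking, Adamts14, a procollagen protease, was called higher in SCA-1+ cells averaged over tdT status (log2 difference 3.08), where 4.77% of all genes tested were called higher and 6.79% lower. Within tdTneg cells Lox, a lysyl oxidase, was higher as well (5.499), so that 2 of the 12 were called higher there beside 3.29% of all genes tested, and Tll1, a tolloid protease, was lower in tdT+ than tdTneg SCA-1+ cells (-3.82). Lox was at 15.4 and 12.8 normalized CPM in tdTneg SCA-1+ libraries, and next highest in tdT+ CD49f+CD34+ replicate 2 at 7.45. The endothelial sum was 2903, 3283 and 779 in those libraries, and the part of its markers in the Lox level was not tested. Of 9 tested receptors, Ddr2, a collagen-binding kinase, and Mrc2, an endocytic collagen receptor, were called higher in SCA-1+ cells averaged over tdT status (2.15 and 1.96), and no receptor was called in the tdT comparison of SCA-1+ cells, where 1 was higher and 1 lower at an unadjusted p under 0.05, beside 5.17% and 9.42% of all genes tested. Of 10 genes of collagen breakdown and its inhibitors, Timp2, an inhibitor of metalloproteinases, was called lower between the populations (-1.57) and in tdT+ against tdTneg SCA-1+ cells (-3.18), with 34.6, 52.9 and 52.5 normalized CPM in tdT+ SCA-1+ libraries and 285 to 536 in the other 8. In CD49f+CD34+ cells no gene of these 6 lists was called between tdT+ and tdTneg, where 3 of the 76 tested were higher and 12 lower at an unadjusted p under 0.05, beside 4.56% and 3.86% of all genes tested. Without tdT+ CD49f+CD34+ replicate 2 these were 2 and 12. Over the 6 lists averaged over tdT status, 5 were called higher and 7 lower, and 6 and 8 without that library, which added Timp1 and Adamts3. In the tdT comparison of SCA-1+ cells 9 of the 76 were called lower with and without it, beside 2.06% of all genes tested, Lox taking the place of Lamb2. Within tdT+ cells 5 of the 76 were called higher and 11 lower in SCA-1+ cells (5 and 10 without it), beside 2.91% and 5.54% of all genes tested, and within tdTneg cells 5 and 2 (4 and 1 without it), beside 3.29% and 1.45%. For the difference between the tdT effects 7 were called lower (Fkbp10, Tll1, Timp2, Bgn, Sparc, Lama4 and Hspg2, log2 differences from -3.38 to -1.82) and none higher, beside 0.379% and 0.00985% of all genes tested. Without that library 3 were called lower, the calls of Lama4, Fkbp10, Bgn and Tll1 being lost.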

How the data were processed

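Counts per gene in each of 11 libraries were taken as the authors deposited them, raw and not normalized. Per the labels and the submitters' processing notes, TruSeq RNA Sample Preparation v2 libraries were demultiplexed with bcl2fastq 2.20.0.422, checked with FastQC, aligned with STAR to mm10 and counted per gene with featureCounts, and the strand setting is not given in the sources used here. The 55536 gene IDs were those of GENCODE M21 (Ensembl 96, GRCm38), which gave symbols, biotypes, coordinates and exon lengths, and 1 further row entered no library size or test. Total counts were 17409131 to 46542177 per library, so that at low levels few counts set the precision.

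Genes were filtered with filterByExpr on the 4 groups, normalized by TMM and fitted in edgeR 4.0.16 (glmQLFit and glmQLFTest, R 4.3.3) with 1 mean per group over all 11 libraries, and p-values were adjusted by Benjamini-Hochberg over the 20307 genes tested. Standard errors were derived from the fold change and its F value. Levels are normalized CPM, per kb of summed exon length where genes are compared. The fit was tested on simulated counts with known changes. Groups were taken from the sorted population given for each sample. Alternatives were DESeq2 1.42.0, other size factors, a filter of at least 1 count, no fold threshold, only the groups compared, the replicate number as a block, and leaving out each library. The study describes replicates as pools of 2 mice, so libraries of 1 number were read as sorts of the same pool. Deviations from group means correlated with a median of 0.083 (-0.42 to 0.59) in 15 pairs of the same number and -0.023 in 30 others. P-values measure the spread between these pools.

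Genes named were those called in any comparison, the 3 highest of each class, both members of each type IV pair, the 5 largest changes at an unadjusted p under 0.05 in each comparison, called partner genes, and marker sums. Members, classes and lists were chosen with earlier results of these data known. Promoter windows came from RefSeq (GRCm38.p6), and Python 3.11.15 was used for them and for figures.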

Additional observations from a re-analysis of the deposited data

Results flagged for a closer look

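The tdT effect on Col4a2 differed between the populations. In SCA-1+ cells all 3 tdT+ libraries (12.8 to 28.2 normalized CPM) were below both tdTneg libraries (164 and 323), and in CD49f+CD34+ cells the tdT+ libraries (85.4 to 100.4) were just below the tdTneg libraries (115 to 203). The difference between the effects was -2.96 on the log2 scale by edgeR's quasi-likelihood test (adjusted p = 0.0453), and over the alternatives it ran from -3.38 to -2.42 with adjusted p from 1.01e-06 to 0.23. The sum of 10 endothelial markers was 2903 and 3283 normalized CPM in the tdTneg SCA-1+ libraries and 7.11 to 779 in the other 9. All 10 had a negative difference between the effects (median -6.97), 9 at an unadjusted p under 0.05, beside 7.63% of all genes tested. Their part in the Col4a2 level was not tested.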

How the results depend on the processing

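No called collagen gene turned its direction under any alternative. Of 42 pairs of a called gene and a comparison, 24 kept their call under every alternative run. DESeq2 called 1 gene higher and 1 lower for tdT in CD49f+CD34+ cells, 1 higher for tdT in SCA-1+ cells, 1 higher between populations within tdT+, 6 lower within tdTneg, and 1 higher and 10 lower for the difference between tdT effects. With a filter of at least 1 count there were 1 lower call for tdT in CD49f+CD34+ cells, 2 higher between the populations, 1 higher within tdT+, 5 lower within tdTneg, and 1 higher and 8 lower for the difference between tdT effects. Other size factors and the fit of the groups compared alone each gave 1 higher call within tdT+, and the latter 1 higher for tdT in SCA-1+ cells. With the replicate block, read as pairing by pool, there were 2 higher calls between the populations, 1 higher within tdT+ and 0 lower for the difference between tdT effects. The block ended the calls of Col18a1 for tdT in SCA-1+ cells, Col24a1 between the populations and within tdT+, Col4a6 within tdT+ and Col4a2 for the difference between effects, and no other call. Dropping the fold threshold changed no count. A fit of the groups compared alone could not be made for the mean over tdT status or the difference between effects. The cause of these changes was not tested.

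Leaving out each library gave 2 to 9 lower calls for tdT in SCA-1+ cells, 8 to 12 lower and 1 to 2 higher between the populations, 12 to 15 lower and 1 to 3 higher within tdT+, 0 to 4 lower and 0 to 2 higher within tdTneg, and 0 to 4 lower for the difference between effects. With 2 libraries in the tdTneg SCA-1+ group, leaving out either left a lone library that was assumed to vary like the other groups. Depth and the spread between libraries limit low genes such as Col24a1 and Col5a3.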
